A study of Mus musculus with 18 samples.

Results

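Wild type (wt) embryoid bodies (EBs) taken after 16 days of differentiation (d16) were set against the undifferentiated wt embryonic stem cells (ESCs) of day 0 (d0) from which such EBs are grown, which gives the net outcome of differentiation in cells that keep all their DNA methyltransferases. The samples were chosen by genotype and day alone: 4 of the 18 arrays of the series, 2 per group. All 35512 probe sets were compared, and 19938 genes had a probe set that carries their symbol and no other. The wt d16 group was made of J1 (129Sv/Jae) EBs grown by the hanging drop method in medium without LIF, the cytokine that holds ESCs in self-renewal. The wt d0 group was made of the same J1 line in the undifferentiated state. The series also holds wt EBs of day 4 (d4) and the d0, d4 and d16 stages of 2 J1 mutants, Dnmt1-/- and TKO, which lacks Dnmt1, Dnmt3a and Dnmt3b. Each genotype was represented by J1 ESC lines only, EBs were lysed whole and unsorted, and the labels call the 2 arrays of a group biological replicates. An array signal of a d16 EB is therefore an average over many cell types, in which fewer cells of a type and less RNA per cell cannot be told apart.

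ESCs are held in the pluripotent state by a network of transcription factors around Oct4 (Pou5f1), Nanog and Sox2. When LIF is withdrawn and the cells aggregate, this network is shut down, the aggregate passes through a stage that resembles the gastrulating embryo, and descendants of all germ layers appear without any direction from outside. The surface of an EB commonly forms visceral endoderm, the extraembryonic epithelium that feeds the early embryo and secretes many of the plasma proteins that the liver makes later, while the interior forms mesenchyme, muscle, vessels and blood.

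Values are log2 signals of the robust multi-array average (RMA) as deposited, a change is the mean of the d16 arrays minus the mean of the d0 arrays, and its error is the standard error (SE) of limma's fit over all 18 arrays. A probe set was called when it changed at least 2-fold with a false discovery rate under 0.05 over all probe sets. The number of arrays limits the precision: the median SE of a change was 0.203. The 18 arrays had medians of 5.77 to 5.90, and the 2 arrays of each group correlated with r of 0.981 to 0.991 over all probe sets. Dnmt1, the gene deleted in both mutants, had d16 signals of 9.16 and 9.20 in wt, against 8.56 and 8.86 in Dnmt1-/- and 8.40 and 8.43 in TKO, and d0 signals of 9.60 and 9.77 in wt, against 8.53 and 8.81 in Dnmt1-/- and 8.42 and 8.41 in TKO. It was lower in every mutant array than in every wt array of the same day, but stayed above the median of its array in all of them, and whether its probes lie in the deleted part was not examined. Nor was the place of the probes examined for the other enzymes that TKO lacks. Dnmt3a had d16 signals of 8.53 and 8.95 in wt, against 6.45 and 6.67 in TKO, and d0 signals of 8.87 and 9.45 in wt, against 7.42 and 7.65 in TKO. Dnmt3b had d16 signals of 7.16 and 7.41 in wt, against 7.52 and 7.71 in TKO, and d0 signals of 9.80 or more in both wt arrays, against 7.33 and 7.45 in TKO, so that at d16 the TKO arrays were above the wt arrays. Of 13 housekeeping genes, 1 was called, beta-2 microglobulin (B2m), a light chain of MHC class I, with a change of 2.95 ± 0.28, adjusted p = 1.3e-05, while beta-actin (Actb) changed by 0.05, adjusted p = 0.81.

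Between d16 EBs and d0 ESCs, 3831 of 35512 probe sets were called (10.8%), of which 2192 were higher in d16 EBs (6.17%) and 1639 lower (4.62%). By gene, 1724 of 19938 were higher (8.65%) and 1130 lower (5.67%), with a median change of -0.06 over all genes. The rises were larger than the falls. Of the called probe sets, 589 were at least 4-fold, 202 at least 8-fold and 24 at least 32-fold higher in d16 EBs, while 239 were at least 4-fold lower, 69 at least 8-fold lower and none 32-fold lower. Leaving out each of the 4 arrays in turn, 1210 of the 1724 higher genes and 757 of the 1130 lower genes kept their call every time. The 2 arrays of d16 did not overlap with those of d0 in 56.7% of probe sets, so separation of the arrays alone was common.

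**Figure D1:**
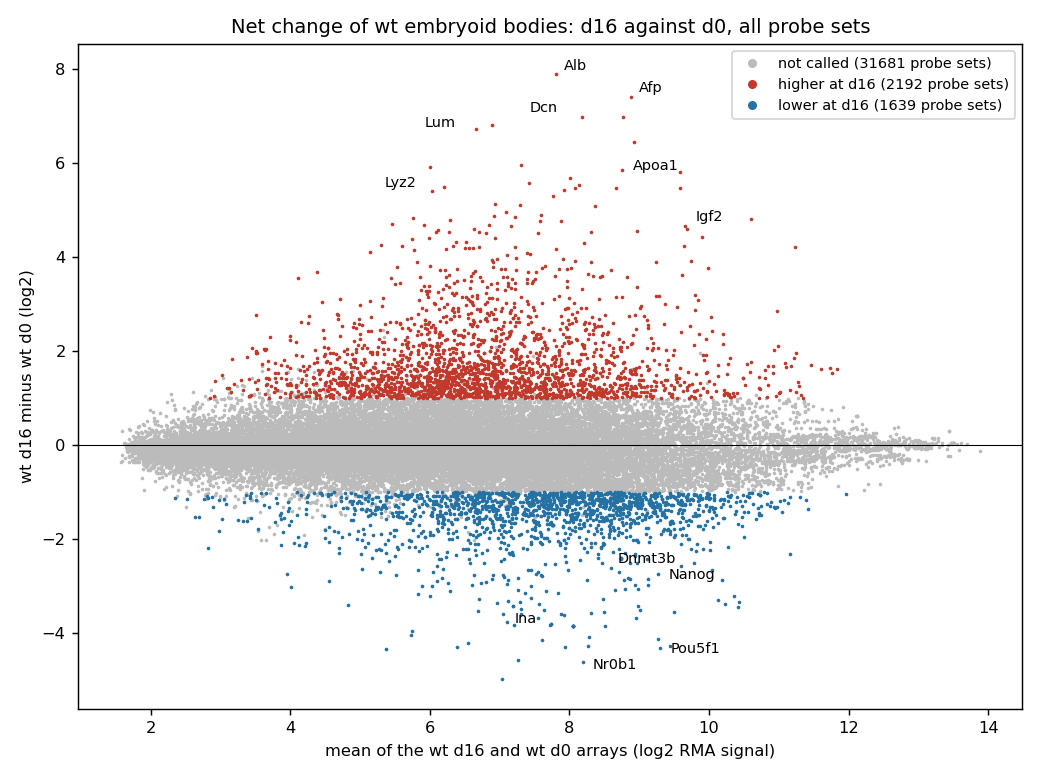
Each point is 1 of 35512 probe sets, with the mean log2 RMA signal of the wt d16 and wt d0 arrays on the horizontal axis and the change, wt d16 minus wt d0, on the vertical axis. Called probe sets are red (2192 higher at d16) or blue (1639 lower at d16), and Alb at 7.89 lies at the top.

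The 15 genes with the largest rise were mostly genes of liver and connective tissue. Alb, Afp, Ttr, Ugt2b34, Apoa1, Trf, Ahsg and Fgb belong to the secretory and metabolic repertoire of liver and visceral endoderm, Dcn, Lum, Postn and Igfbp5 to connective tissue, and Lyz2, Cym and Prl2c5 encode lysozyme of macrophages, the gastric protease chymosin and a prolactin-like hormone of the placenta. The gene for albumin (Alb), the main plasma carrier protein, had signals of 11.33 and 12.19 in d16 EBs, against 3.80 and 3.93 in d0 ESCs. This was a 238-fold difference (7.89 ± 0.35, adjusted p = 7.4e-08), the largest rise among the 19938 genes, and both d16 arrays stood far above both d0 arrays. Alpha-fetoprotein (Afp), the albumin of the yolk sac and fetal liver, had 12.72 and 12.48 in d16 EBs, against 5.17 and 5.19 in d0 ESCs (7.42 ± 0.35, adjusted p = 1.1e-07). Chymosin (Cym) had 11.80 and 12.50 in d16 EBs, against 5.29 and 6.10 in d0 ESCs (6.45 ± 0.50, adjusted p = 2.8e-06).

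The 15 genes with the largest fall, each by its brightest probe set, were mostly genes of the ESC state. Nr0b1, Pou5f1, Dnmt3l, Utf1, Zfp42, Gdf3, L1td1, Esrrb and Dppa2 are known as pluripotency genes, and Tdrd12 acts in the piRNA pathway of germ cells. Zfp980, Zfp979, Zfp640 and Zfp600 encode zinc finger proteins of a large family of similar copies, which probes may not separate, so their values are uncertain. Zfp980 had 5.46 and 4.52 in d16 EBs, against 9.41 and 9.69 in d0 ESCs (-4.57 ± 0.39, adjusted p = 5e-06). The neuronal intermediate filament alpha-internexin (Ina) had 5.82 and 5.79 in d16 EBs, against 9.63 and 9.64 in d0 ESCs (-3.83 ± 0.23, adjusted p = 5.1e-07), so that a gene known from neurons was high in ESCs and low in d16 EBs.

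**Figure D2:**
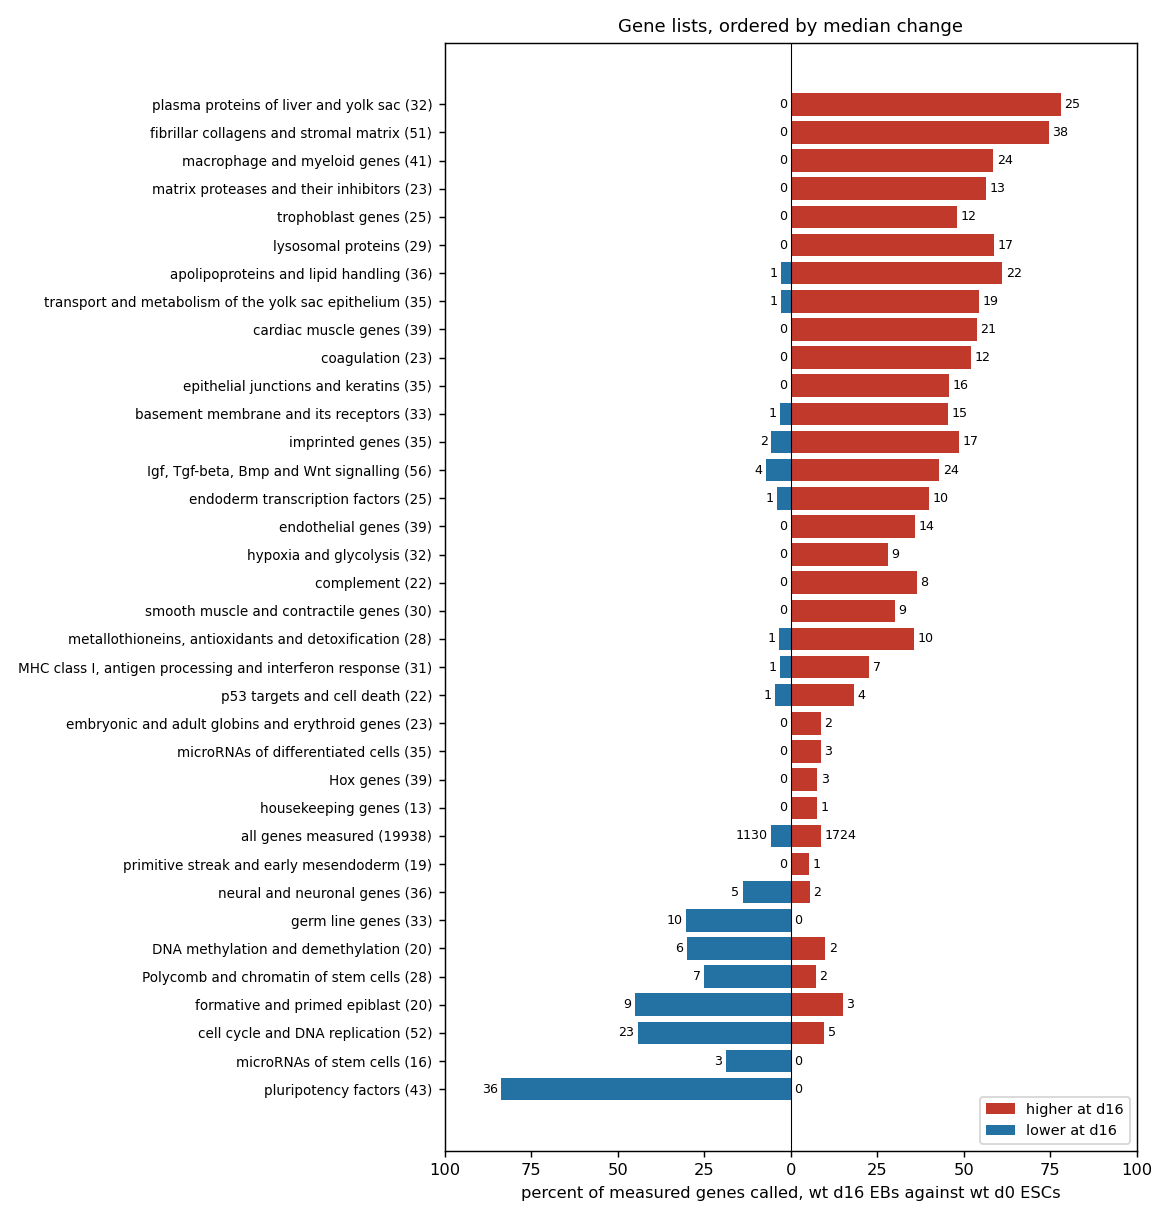
Bars give the percent of measured genes of each list (number in brackets) called higher (right, red) or lower (left, blue) in wt d16 EBs than in wt d0 ESCs, with the counts at the bar ends and the lists ordered by median change. Plasma proteins (25 of 32 higher) stand at the top, pluripotency factors (36 of 43 lower) at the bottom, and all genes measured near the middle.

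Pluripotency factors were lower as a group. Of 43 measured, 36 were lower in d16 EBs (83.7%, against 5.67% of all genes) and none higher, with a median change of -2.42. The shares of all genes called, 8.65% higher and 5.67% lower, are also the background for the counts of the lists below. Oct4 (Pou5f1), the factor on which the ESC state depends, had signals of 7.44 and 6.84 in d16 EBs, against 11.57 and 11.35 in d0 ESCs (-4.32 ± 0.41, adjusted p = 1.3e-05). The nuclear receptor Nr0b1 (Dax1), a partner of Oct4, had 6.29 and 5.47 in d16 EBs, against 10.32 and 10.68 in d0 ESCs (-4.62 ± 0.44, adjusted p = 1.3e-05), the largest fall in the list with 1 probe set per gene. A dimmer probe set of Dppa4, another pluripotency gene, fell further (-4.97 ± 0.61) than the brighter one that stands for the gene elsewhere (-3.61). Pou5f1 and Nr0b1 had d16 arrays far below their d0 arrays.

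Utf1, a chromatin factor of ESCs, had signals of 7.39 and 7.20 in d16 EBs, against 11.53 and 11.64 in d0 ESCs (-4.29 ± 0.31, adjusted p = 1.6e-06), and Rex1 (Zfp42), a classical ESC marker, had 6.53 and 5.73 in d16 EBs, against 10.25 and 10.58 in d0 ESCs (-4.28 ± 0.38, adjusted p = 7.2e-06). Nanog had 8.05 and 7.75 in d16 EBs, against 10.88 and 10.41 in d0 ESCs (-2.74 ± 0.47, adjusted p = 0.00092), and Sox2, which also serves neural progenitors, had 8.81 and 8.73 in d16 EBs, against 10.80 and 10.97 in d0 ESCs (-2.11 ± 0.33, adjusted p = 0.00044).
Some members did not pass. Klf4, a reprogramming factor with roles in epithelia, changed by -0.98 ± 0.19, adjusted p = 0.002, just short of 2-fold. Klf5 (0.05, adjusted p = 0.9) and Tbx3 (0.07, adjusted p = 0.92), which are used again in epithelia and mesoderm, had values close to 0.

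The Nanog promoter is shown because it carries the element at which Oct4 and Sox2 are known to bind side by side. The window spans a transcription start of RefSeq (GRCm38.p6, chr6:122707315-122707614, plus strand), and capitals mark the match to the Oct-Sox composite element, searched on both strands.
Nanog: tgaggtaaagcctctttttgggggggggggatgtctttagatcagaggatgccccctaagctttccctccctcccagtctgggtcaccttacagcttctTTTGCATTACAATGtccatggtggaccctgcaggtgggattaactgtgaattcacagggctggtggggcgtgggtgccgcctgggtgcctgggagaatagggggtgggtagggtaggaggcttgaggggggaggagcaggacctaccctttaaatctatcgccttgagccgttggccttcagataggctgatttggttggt
Of 27025 genes with a promoter in the table, 1 held this element, and that gene was Nanog. The octamer ATGCAAAT alone stood in the promoters of 1.97% of genes and in 1 of the 29 pluripotency genes with a promoter, Zfp42. Distal enhancers lie outside these windows, and a match is a description of letters only.

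Genes of the formative and primed epiblast, the states through which ESCs pass on their way out, were lower in part. Of 20, 9 were lower (45.0%, against 5.67% of all genes) and 3 higher, with a median of -0.69. Lefty1, an inhibitor of Nodal signalling, had 5.68 and 5.35 in d16 EBs, against 8.90 and 9.31 in d0 ESCs (-3.58 ± 0.35, adjusted p = 1.5e-05), and Nodal itself changed by -2.75 ± 0.34, adjusted p = 8.4e-05. Otx2, a factor of primed epiblast and forebrain, fell as well (-1.86 ± 0.38, adjusted p = 0.0033). Fgf5, the marker of primed epiblast, changed by -0.33, adjusted p = 0.68, with signals of 6.61 and 6.09 at d0, 6.71 and 8.02 at d4 and 5.98 and 6.05 at d16. Carbonic anhydrase 4 (Car4) went the other way, with 9.41 and 9.75 in d16 EBs, against 7.78 and 6.98 in d0 ESCs (2.20 ± 0.34, adjusted p = 0.00049).

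The enzymes that write and read DNA methylation changed unevenly. Of 20 genes, 6 were lower and 2 higher (median -0.49). Dnmt3l, the cofactor of de novo methylation, changed by -4.30 ± 0.38, adjusted p = 6.9e-06, and the de novo enzyme Dnmt3b by -2.62 ± 0.24, adjusted p = 9.4e-06. Tet1, which oxidises methylcytosine, had 7.70 and 7.20 in d16 EBs, against 10.35 and 10.68 in d0 ESCs (-3.07 ± 0.23, adjusted p = 2.3e-06), while its relative Tet3 had 7.33 and 7.13 in d16 EBs, against 6.01 and 5.98 in d0 ESCs (1.24 ± 0.18, adjusted p = 0.00033). A second, dimmer probe set of Tet3 changed by 0.67 (adjusted p = 0.0044) and was not called.
The maintenance enzyme Dnmt1 changed by -0.51 ± 0.16, adjusted p = 0.038, which passes the false discovery rate but not the 2-fold limit. Dnmt3a changed by -0.42, adjusted p = 0.22, and its arrays overlapped between the groups. The maintenance partner Uhrf1 (-1.20 ± 0.14, adjusted p = 4.9e-05) and the remodeller Hells (8.84 and 8.55 in d16 EBs, against 10.55 and 10.84 in d0 ESCs, adjusted p = 3.4e-06) were called lower, and the reader Mbd2 was called higher (1.93 ± 0.27, adjusted p = 0.00023).

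Among 28 Polycomb and stem cell chromatin genes, 7 were lower and 2 higher (median -0.53). Subunits of the same complex moved in opposite directions. Phc1, a subunit of Polycomb repressive complex 1, had 7.57 and 7.32 in d16 EBs, against 10.22 and 10.36 in d0 ESCs (-2.85 ± 0.20, adjusted p = 1.4e-06), and Cbx7, its chromodomain subunit in ESCs, changed by -1.87 ± 0.17, adjusted p = 9.1e-06, while Bmi1, another subunit of that complex, was higher (1.42 ± 0.17, adjusted p = 8.4e-05). Eed (-1.33 ± 0.18, adjusted p = 0.00016) and the accessory factors Jarid2 (-1.66 ± 0.21, adjusted p = 0.0001) and Mtf2 (-1.32 ± 0.18, adjusted p = 0.00015) of complex 2 were lower, while a second probe set of Eed, at low signal, changed by -0.42 (adjusted p = 0.26) and was not called. Its catalytic subunit Ezh2 changed by -0.57, adjusted p = 0.006 and was not called.

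Germ line genes, many of which ESCs transcribe, were lower in 10 of 33 cases and higher in none (median -0.47), and all 10 calls were kept without each array. Ddx4 (Vasa), an RNA helicase of germ cells, had 4.58 and 4.48 in d16 EBs, against 7.56 and 7.52 in d0 ESCs (-3.01 ± 0.26, adjusted p = 6.2e-06). Mael (-2.09 ± 0.39, adjusted p = 0.0016), which acts in the piRNA pathway, and Sycp3 (-2.07 ± 0.43, adjusted p = 0.0035), a part of the synaptonemal complex, were also lower. The germ cell factor Dazl changed by -0.37, adjusted p = 0.47.

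Cell division genes were lower in part. Of 52 cell cycle and replication genes, 23 were lower and 5 higher (median -0.89), and 15 of the falls and 2 of the rises were kept without each array. Mcm2 (-1.54 ± 0.14, adjusted p = 6.8e-06) and Mcm5 (-1.49 ± 0.12, adjusted p = 3.6e-06), subunits of the replicative helicase, were lower. Ccne1, the G1/S cyclin that ESCs keep high, had 8.55 and 8.09 in d16 EBs, against 10.97 and 10.81 in d0 ESCs (-2.57 ± 0.19, adjusted p = 2.4e-06), and Mybl2 changed by -2.83 ± 0.22, adjusted p = 2.7e-06.
Mcm10 (-1.95 ± 0.14, adjusted p = 2e-06) and Orc1 (-2.06 ± 0.26, adjusted p = 0.0001), which act at replication origins, fell too. Members of this list rose about as often as all genes (9.62%, against 8.65%). Cyclin D2 (Ccnd2) had 11.32 and 10.86 in d16 EBs, against 8.84 and 8.82 in d0 ESCs (2.26 ± 0.24, adjusted p = 3.1e-05). The cell cycle inhibitor p57 (Cdkn1c) had 9.79 and 10.83 in d16 EBs, against 8.17 and 8.31 in d0 ESCs (2.07 ± 0.30, adjusted p = 0.0003). The proliferation marker Pcna changed by -0.82, adjusted p = 0.001 and was not called.

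Hairpins of the miR-17 to miR-92 cluster (chr14), which is active in dividing stem cells, were lower in part. Of 16 microRNA genes of stem cells with a probe set, 3 were called lower (18.8%, against 5.67% of all genes). They were Mir19a (-1.47 ± 0.41, adjusted p = 0.019), Mir20a (-1.34 ± 0.44, adjusted p = 0.043) and Mir18 (-1.21 ± 0.32, adjusted p = 0.014), and their neighbour Mir17 changed by -1.12, adjusted p = 0.091. Mir18 had signals of 6.69 and 6.67 in d16 EBs, against 7.59 and 8.19 in d0 ESCs. Without d0 replicate 2 or d16 replicate 2 all 3 calls were lost (-1.06 for Mir19a, -0.97 for Mir20a and -0.91 for Mir18 without d0 replicate 2), and without d16 replicate 1 those of Mir18 and Mir20a. The mature sequences (RefSeq, GRCm38.p6) are printed with their seed, bases 2 to 8, in capitals and with the position of the mature RNA, to show that miR-17 and miR-20a share 1 seed while the others each have their own.
miR-17-5p (chr14:115043684-115043706, plus strand): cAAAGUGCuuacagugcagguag
miR-20a-5p (chr14:115044183-115044205, plus strand): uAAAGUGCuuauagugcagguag
miR-18a-5p (chr14:115043867-115043889, plus strand): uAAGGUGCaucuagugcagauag
miR-19a-3p (chr14:115044048-115044070, plus strand): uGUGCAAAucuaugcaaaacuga
miR-302b-3p (chr3:127545275-127545297, plus strand): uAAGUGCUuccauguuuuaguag
miR-99a-5p (chr16:77598940-77598961, plus strand): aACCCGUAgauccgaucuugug
The Mir302 hairpins (chr3), hallmarks of primed pluripotency, were not called. Mir302b had signals of 5.81 and 3.51 at d0, 6.65 and 6.27 at d4 and 2.91 and 3.01 at d16, so that the d0 arrays disagreed and both d4 arrays were the highest. Of 35 microRNA genes of differentiated cells, 3 were higher (8.57%, a share like the 8.65% of all genes): Mir145a (1.97 ± 0.19, adjusted p = 1.4e-05) and Mir143 (1.09 ± 0.28, adjusted p = 0.013) of smooth muscle, and Mir99a, with 4.77 and 4.56 in d16 EBs, against 3.39 and 3.35 in d0 ESCs (1.29 ± 0.13, adjusted p = 1.8e-05). The call of Mir143 was lost without d0 replicate 1 (0.85) or d16 replicate 2 (0.81). Whole-transcript probes over a hairpin read its precursor and primary transcript, so these are not levels of mature microRNA.

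Genes that direct endoderm rose in part. Of 25 endoderm transcription factors, 10 were higher and 1 lower (median 0.75). Gata6, the factor that starts primitive endoderm, had 9.67 and 9.76 in d16 EBs, against 6.42 and 6.01 in d0 ESCs (3.50 ± 0.24, adjusted p = 1.2e-06), and Gata4 changed by 1.98 ± 0.26, adjusted p = 0.00012. Hnf4a, a master regulator of visceral endoderm and liver, had 8.02 and 7.69 in d16 EBs, against 5.68 and 6.04 in d0 ESCs (2.00 ± 0.26, adjusted p = 0.00014), and Foxa1 (2.12 ± 0.22, adjusted p = 2.1e-05) and Onecut1 (1.97 ± 0.18, adjusted p = 1e-05), factors of liver development, rose as well.
The definitive endoderm genes Sox17 (0.75, adjusted p = 0.015) and Foxa2 (0.62, adjusted p = 0.016) and the liver and fat factor Cebpa (0.70, adjusted p = 0.0061) did not reach 2-fold. Nr5a2, which also belongs to the pluripotency network, was the member that fell (-1.89 ± 0.27, adjusted p = 0.00024).

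Plasma proteins of liver and yolk sac rose in 25 of 32 cases with none lower, a median change of 2.89, and 22 of the calls were kept without each array. Transthyretin (Ttr), the thyroid hormone carrier and an early product of visceral endoderm, had 12.27 and 12.26 in d16 EBs, against 5.20 and 5.37 in d0 ESCs (6.98 ± 0.62, adjusted p = 7.2e-06). Transferrin (Trf), the iron carrier, had 12.43 and 12.55 in d16 EBs, against 6.57 and 6.79 in d0 ESCs (5.81 ± 0.19, adjusted p = 8.1e-09), and retinol binding protein (Rbp4) changed by 5.48 ± 0.37, adjusted p = 1.2e-06. In all 3 the d16 arrays stood apart from the d0 arrays by more than 5 log2 units.
Fetuin A (Ahsg) had 9.90 and 11.81 in d16 EBs, against 5.11 and 5.23 in d0 ESCs (5.68 ± 0.46, adjusted p = 3.5e-06), kininogen (Kng1), the source of bradykinin, had 8.85 and 10.12 in d16 EBs, against 4.28 and 4.45 in d0 ESCs (5.12 ± 0.33, adjusted p = 8e-07), and vitronectin (Vtn) changed by 4.89 ± 0.31, adjusted p = 8.8e-07. For Ahsg and Kng1 d16 replicate 2 was the higher array, and over the whole list it exceeded replicate 1 by a median of 0.74. The acute phase protein Orm1 changed by -0.01, adjusted p = 0.98, and Fetub had 6.04 and 6.96 in d16 EBs, against 7.52 and 7.67 in d0 ESCs (-1.09, adjusted p = 0.074).

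Clotting factors followed. Of 23, 12 were higher and none lower (median 1.05). The fibrinogen chains, which are made together, all rose: Fgb had 9.95 and 10.47 in d16 EBs, against 4.61 and 4.66 in d0 ESCs (5.58 ± 0.18, adjusted p = 7.1e-09), Fgg changed by 4.54 ± 0.41, adjusted p = 8.4e-06 and Fga by 2.16 ± 0.38, adjusted p = 0.0011. Prothrombin (F2) changed by 2.53 ± 0.24, adjusted p = 1.3e-05. Factor XIII subunit A (F13a1), which macrophages also make, had 8.65 and 9.32 in d16 EBs, against 4.17 and 4.71 in d0 ESCs (4.54 ± 0.25, adjusted p = 3.1e-07). Factors IX (0.00, adjusted p = 0.99), VIII (-0.07, adjusted p = 0.84) and XI (0.05, adjusted p = 0.89) were near 0, so that not every factor rose.

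Lipoprotein genes rose in 22 of 36 cases and fell in 1 (median 1.20), with 16 of the rises kept without each array. Apoa1, the main protein of high density lipoprotein, had 11.70 and 11.66 in d16 EBs, against 5.54 and 6.13 in d0 ESCs (5.85 ± 0.31, adjusted p = 2.1e-07), and Apob, the core of the particles that the yolk sac exports, had 10.18 and 9.12 in d16 EBs, against 5.15 and 4.43 in d0 ESCs (4.86 ± 0.40, adjusted p = 4.2e-06). Mttp, which loads lipid onto ApoB, rose too (2.45 ± 0.27, adjusted p = 3.6e-05). Cubilin (Cubn), the endocytic receptor of visceral endoderm, changed by 3.97 ± 0.58, adjusted p = 0.00029, and its adaptor Dab2 by 3.61 ± 0.37, adjusted p = 2.1e-05.
The lone fall was Lrp2 (megalin), another endocytic receptor, with 8.10 and 7.02 in d16 EBs, against 8.90 and 8.26 in d0 ESCs (-1.02 ± 0.32, adjusted p = 0.037), and this call no longer stood without d0 replicate 1 (-0.70) or d16 replicate 2 (-0.48). Among 35 transport and metabolism genes of yolk sac epithelium, 19 were higher and 1 lower (median 1.16). Ferroportin (Slc40a1), the iron exporter, had 10.09 and 10.84 in d16 EBs, against 7.32 and 6.16 in d0 ESCs (3.72 ± 0.31, adjusted p = 4.1e-06), and the water channel Aqp8 had 8.05 and 9.64 in d16 EBs, against 5.29 and 5.49 in d0 ESCs (3.45 ± 0.46, adjusted p = 0.00015). The urea cycle enzyme Cps1, a liver marker, rose modestly (1.88 ± 0.23, adjusted p = 7.2e-05).
In the RefSeq promoters (GRCm38.p6), windows that span the start of a gene, CAAAGTCCA, a core of the HNF4 site, on either strand, stood in none of the 24 plasma protein genes with a promoter in the table and in 0.555% of all 27025 genes.

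Connective tissue formed the second large block. Of 51 genes of fibrillar collagens and stromal matrix, 38 were higher and none lower, with a median of 2.53, and 34 of the calls were kept without each array. Decorin (Dcn), a small proteoglycan that binds collagen, had 11.54 and 11.81 in d16 EBs, against 4.71 and 4.67 in d0 ESCs (6.99 ± 0.30, adjusted p = 6.1e-08), a 127-fold difference. Lumican (Lum), its relative, had 9.93 and 10.13 in d16 EBs, against 3.27 and 3.34 in d0 ESCs (6.72 ± 0.24, adjusted p = 1.8e-08), and periostin (Postn) had 10.40 and 10.17 in d16 EBs, against 4.23 and 4.42 in d0 ESCs (5.95 ± 0.48, adjusted p = 3.5e-06). At d0, Lum and Postn lay below the lower quartile of their arrays (4.374 in replicate 1 and 4.48 in replicate 2) and Dcn above it. These genes had high d16 signals in both replicates.
The chains of type I collagen had 11.78 and 12.46 in d16 EBs, against 7.81 and 7.56 in d0 ESCs for Col1a1 (4.43 ± 0.34, adjusted p = 2.7e-06), and 11.92 and 12.72 in d16 EBs, against 6.74 and 6.96 in d0 ESCs for Col1a2 (5.47 ± 0.26, adjusted p = 1.1e-07). Col3a1, of type III collagen, changed by 5.46 ± 0.23, adjusted p = 5.7e-08. Cadherin 11 (Cdh11), an adhesion molecule of mesenchyme, had 5.47 and 4.95 at d0, 10.16 and 10.62 at d4 and 10.76 and 10.51 at d16, so that its rise (5.42 ± 0.27, adjusted p = 1.5e-07) was in place at d4. The fibroblast marker Thy1 (0.24, adjusted p = 0.23) and the collagen Col15a1 (0.17, adjusted p = 0.68) were not called.

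Matrix proteases rose with the matrix. Of 23 proteases and inhibitors, 13 were higher and none lower (median 1.30). Adamts1 had 9.52 and 9.60 in d16 EBs, against 6.56 and 6.30 in d0 ESCs (3.13 ± 0.23, adjusted p = 2e-06), the gelatinase Mmp2 had 10.65 and 11.09 in d16 EBs, against 8.13 and 7.58 in d0 ESCs (3.01 ± 0.30, adjusted p = 1.7e-05), and its inhibitor Timp2 changed by 2.88 ± 0.35, adjusted p = 7.8e-05. Basement membrane genes rose in 15 of 33 cases and fell in 1 (median 0.91). The chains of collagen IV, Col4a1 (2.64 ± 0.29, adjusted p = 3.9e-05) and Col4a2 (2.61 ± 0.33, adjusted p = 0.00011), were higher together, whereas the laminin Lama1 (1.10, adjusted p = 0.13) and perlecan (Hspg2, 0.22, adjusted p = 0.49) were not called.

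Cardiac muscle genes rose in 21 of 39 cases with none lower (median 1.10), and 19 of these calls were kept without each array. Cardiac actin (Actc1) had 11.95 and 12.02 in d16 EBs, against 7.72 and 7.03 in d0 ESCs (4.61 ± 0.44, adjusted p = 1.2e-05), and cardiac troponin T (Tnnt2) had 9.30 and 9.26 in d16 EBs, against 5.67 and 5.83 in d0 ESCs (3.53 ± 0.17, adjusted p = 1.1e-07). Atrial light chain 7 (Myl7) changed by 3.61 ± 0.41, adjusted p = 4.8e-05. The ventricular and atrial heavy chains both rose, Myh7 by 2.54 ± 0.15, adjusted p = 3.5e-07 and Myh6 by 2.62 ± 0.28, adjusted p = 3e-05, and phospholamban (Pln), the brake of the calcium pump, by 3.38 ± 0.26, adjusted p = 3e-06.
Every d16 array was above every d0 array for these genes. The other 18 cardiac genes were not called, among them the adult troponin Tnni3 (0.54, adjusted p = 0.029) and the pump itself, Atp2a2 (-0.26, adjusted p = 0.37). The promoter of Actc1 is shown for the CArG box, the site of serum response factor, marked in capitals (GRCm38.p6, chr2:114052826-114053125, minus strand, RefSeq).
Actc1: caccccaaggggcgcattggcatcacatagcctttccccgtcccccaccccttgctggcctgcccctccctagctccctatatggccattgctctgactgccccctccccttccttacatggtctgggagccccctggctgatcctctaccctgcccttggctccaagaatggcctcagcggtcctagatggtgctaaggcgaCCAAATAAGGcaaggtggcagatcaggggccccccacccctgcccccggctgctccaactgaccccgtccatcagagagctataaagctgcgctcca
CArG boxes stood in the promoters of 4 of the 32 cardiac genes with a promoter in the table (Actc1, Myl3 and Myl7 among the called) and in 1.81% of all genes.

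Smooth muscle and contractile genes were higher in 9 of 30 cases (median 0.52), and 4 of these calls were kept without each array. The count was 5 with array medians subtracted and 5 without d0 replicate 2. Smooth muscle actin (Acta2) had 11.53 and 11.33 in d16 EBs, against 8.16 and 7.45 in d0 ESCs (3.62 ± 0.57, adjusted p = 0.00051), and Actg2 changed by 2.39 ± 0.22, adjusted p = 8e-06. The d0 arrays disagreed for this list: replicate 2 minus replicate 1 had a median of -0.60. The calls of Myl9 (1.64, adjusted p = 0.043) and Ccn1 (1.29, adjusted p = 0.032) were lost without d0 replicate 2 (1.05 and 0.71) or d16 replicate 1 (1.04 and 0.92), and that of Tpm4 (1.11, adjusted p = 0.0012) without d0 replicate 2 (0.77). Smooth muscle myosin (Myh11) changed by 0.47, adjusted p = 0.11.

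Endothelial genes rose in 14 of 39 cases with none lower (median 0.72). VE-cadherin (Cdh5), the junction molecule of endothelium, had 8.55 and 9.25 in d16 EBs, against 5.37 and 4.92 in d0 ESCs (3.75 ± 0.29, adjusted p = 3e-06), and endomucin (Emcn) had 7.14 and 5.52 in d16 EBs, against 3.50 and 3.78 in d0 ESCs (2.69 ± 0.41, adjusted p = 0.0004). The VEGF receptor Kdr (Flk1) had 5.12 and 5.52 at d0, 9.09 and 9.79 at d4 and 8.08 and 7.18 at d16, so its d16 signal was below its d4 signal but above d0 (2.31 ± 0.36, adjusted p = 0.00044). The other 25 endothelial genes were not called, among them Tek (-0.37, adjusted p = 0.67) and von Willebrand factor (Vwf, -0.42, adjusted p = 0.077), a protein of mature endothelium.

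Macrophage genes formed another block. Of 41, 24 were higher in d16 EBs and none lower (median 1.62), with 21 calls kept without each array. Lysozyme (Lyz2) had 9.22 and 8.68 in d16 EBs, against 3.66 and 3.25 in d0 ESCs (5.50 ± 0.26, adjusted p = 1.1e-07). The chemokine Ccl3 had 9.38 and 8.90 in d16 EBs, against 4.88 and 4.58 in d0 ESCs (4.40 ± 0.30, adjusted p = 1.2e-06), and cathepsin S (Ctss), which processes antigen, changed by 4.22 ± 0.29, adjusted p = 1.2e-06.
The receptor that defines the lineage, Csf1r, had 7.64 and 8.75 in d16 EBs, against 5.05 and 4.99 in d0 ESCs (3.18 ± 0.26, adjusted p = 4.4e-06), and the C1q chains C1qa (2.74 ± 0.23, adjusted p = 5.2e-06), C1qb (3.24 ± 0.26, adjusted p = 3.8e-06) and C1qc (3.08 ± 0.15, adjusted p = 1.1e-07) rose together. Pu.1 (Spi1), the master factor of the lineage, changed by 0.57, adjusted p = 0.021 and Aif1 by 0.64, adjusted p = 0.014, neither of them called. Lyz2 and Csf1r were high in both d16 arrays.

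Erythroid genes were called about as often as all genes, and the d16 arrays disagreed. Of 23, 2 were higher (8.7%, against 8.65% of all genes), the membrane protein Gypc (7.04 and 6.76 in d16 EBs, against 5.20 and 5.60 in d0 ESCs, adjusted p = 0.0027) and the blood factor Lmo2 (1.12 ± 0.28, adjusted p = 0.01), whose call was lost without d0 replicate 1 (0.71). The embryonic beta-like globin Hbb-bh1 had 8.78 and 4.20 in d16 EBs, against 4.36 and 4.02 in d0 ESCs (2.30 ± 1.35, adjusted p = 0.27), so that only d16 replicate 1 was above d0. The embryonic globins Hbb-y (8.23 and 4.87 in d16 EBs, against 4.00 and 4.22 in d0 ESCs) and Hba-x (9.90 and 6.08 in d16 EBs, against 5.75 and 6.04 in d0 ESCs) were also far higher in d16 replicate 1, with adjusted p of 0.14 and 0.16. For Hbb-y and Hba-x, d16 replicate 2 lay above both d0 arrays as well, but by much less. The adult globins had no probe set with their symbol alone. Without d16 replicate 2, the list had 5 calls in place of 2.

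Trophoblast genes were split between the d16 arrays in the opposite sense. Of 25, 12 were higher and none lower (median 1.28), of which 9 were kept without each array, and over the list d16 replicate 2 exceeded replicate 1 by a median of 0.36. Prl2c5, a placental hormone of the prolactin family, had 7.12 and 10.81 in d16 EBs, against 2.92 and 3.17 in d0 ESCs (5.92 ± 0.86, adjusted p = 0.00027). Tpbpa, the marker of spongiotrophoblast, had 6.98 and 9.38 in d16 EBs, against 3.40 and 3.28 in d0 ESCs (4.84 ± 0.51, adjusted p = 2.4e-05), and Rhox9 had 8.58 and 10.77 in d16 EBs, against 7.26 and 7.04 in d0 ESCs (2.53 ± 0.52, adjusted p = 0.0034). Both d16 arrays exceeded both d0 arrays in these genes, but by very different amounts, with replicate 2 the higher (Rhox9 changed by 1.43 without d16 replicate 2).
The early trophoblast factors Elf5 (0.47, adjusted p = 0.071), Cdx2 (0.54, adjusted p = 0.12) and Tfap2c (-0.39, adjusted p = 0.47) were not called. The Prl, Rhox and globin genes belong to families of similar copies, so their values are uncertain where probes cross between members. What differed between the 2 d16 cultures was not tested.

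**Figure D3:**
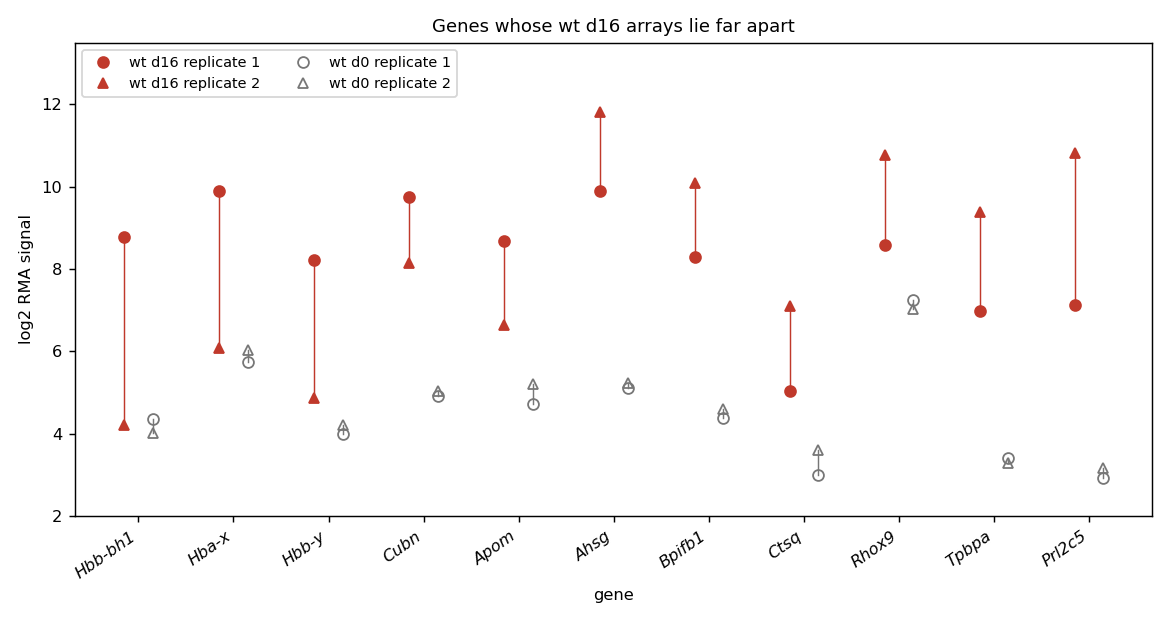
Log2 RMA signals of the wt d16 arrays (red) and the wt d0 arrays (grey) for 11 genes whose d16 arrays lie far apart, with circles for replicate 1 and triangles for replicate 2; the genes were chosen after their values were seen. Globins, Cubn and Apom are higher in d16 replicate 1 and Ahsg, Bpifb1, Ctsq, Rhox9, Tpbpa and Prl2c5 in replicate 2.

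Epithelial genes rose in 16 of 35 cases with none lower (median 0.98). The simple keratins Krt19 (12.28 and 12.52 in d16 EBs, against 10.27 and 8.83 in d0 ESCs, 2.85 ± 0.44, adjusted p = 0.00046), Krt18 (2.37 ± 0.46, adjusted p = 0.0022) and Krt8 (2.11 ± 0.44, adjusted p = 0.0033) were already detected in ESCs, and their d0 arrays differed by over 1 log2 unit (Krt8 changed by 1.37 without d0 replicate 2). Krt7, of ducts and trophoblast, had 9.72 and 9.95 in d16 EBs, against 6.82 and 6.20 in d0 ESCs (3.32 ± 0.25, adjusted p = 2.6e-06), and Krt5, of basal epithelium, had 8.84 and 7.49 in d16 EBs, against 5.40 and 5.15 in d0 ESCs (2.89 ± 0.40, adjusted p = 0.0002). E-cadherin (Cdh1), which ESCs and epithelia share, had 11.04 and 10.96 at d0, 9.41 and 9.85 at d4 and 10.68 and 10.74 at d16 (-0.29, adjusted p = 0.41 for d16 against d0).

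Neural genes were not called higher more often than all genes. Of 36, 2 were higher (5.56%, against 8.65% of all genes) and 5 lower (13.9%, against 5.67%), with a median of -0.25. Stmn2, a microtubule protein of growing axons, had 6.94 and 6.10 in d16 EBs, against 10.23 and 9.94 in d0 ESCs (-3.57 ± 0.27, adjusted p = 2.5e-06), and neuronal tubulin (Tubb3) had 6.27 and 6.38 in d16 EBs, against 8.36 and 8.11 in d0 ESCs (-1.91 ± 0.28, adjusted p = 0.0003). Both were high in ESCs and low in d16 EBs. Pax6 (-1.28 ± 0.27, adjusted p = 0.0034) and Neurod1 (-1.91 ± 0.26, adjusted p = 0.00015), factors of neural fate, were lower as well.
Sox1, the earliest neuroectoderm marker, changed by -0.36, adjusted p = 0.18, and nestin (Nes) by -0.83, adjusted p = 0.11. The members that rose, Ncam1 (2.03 ± 0.21, adjusted p = 2.2e-05) and Isl1 (1.96 ± 0.31, adjusted p = 0.00052), are also known from heart and mesoderm. Among 39 Hox and cofactor genes, 3 were higher (7.69%, against 8.65% of all genes), Meis2 (3.57 ± 0.35, adjusted p = 1.5e-05), Meis1 (3.45 ± 0.35, adjusted p = 1.9e-05) and Hoxb2 (1.08, adjusted p = 0.029), and the call of Hoxb2 was lost without d0 replicate 1, d0 replicate 2 or d16 replicate 1 (0.62).

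Growth factor signalling genes changed in both directions, with 24 of 56 higher and 4 lower (median 0.85). The insulin-like growth factor axis led. Igf2, the fetal growth factor, had 11.84 and 12.14 in d16 EBs, against 7.48 and 7.19 in d0 ESCs (4.66 ± 0.31, adjusted p = 1.2e-06), the binding proteins Igfbp5 10.69 and 11.12 in d16 EBs, against 5.36 and 5.40 in d0 ESCs (5.53 ± 0.31, adjusted p = 3.3e-07) and Igfbp1 10.53 and 10.31 in d16 EBs, against 5.19 and 5.06 in d0 ESCs (5.29 ± 0.26, adjusted p = 1.5e-07), and Igf1 changed by 3.19 ± 0.24, adjusted p = 2.6e-06. Nodal, Lefty1, Lefty2 and the Nodal co-receptor Tdgf1 were the 4 that fell, Tdgf1 with 8.62 and 8.32 in d16 EBs, against 11.72 and 11.83 in d0 ESCs (-3.30 ± 0.54, adjusted p = 0.00068). Bmp4 changed by 1.12, adjusted p = 0.05, with 9.08 and 8.03 in d16 EBs, against 7.70 and 7.16 in d0 ESCs.

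Imprinted genes, expressed from 1 parental copy in some or all tissues, were higher in 17 of 35 cases and lower in 2 (median 0.89). Beside Dcn and Igf2, Plagl1, a zinc finger factor of the imprinted network, had 11.22 and 11.26 in d16 EBs, against 7.22 and 6.16 in d0 ESCs (4.55 ± 0.30, adjusted p = 1.1e-06), and Dlk1, an inhibitor of adipocyte differentiation, had 11.72 and 11.80 in d16 EBs, against 7.67 and 7.39 in d0 ESCs (4.23 ± 0.20, adjusted p = 1.1e-07). Peg3 had 8.44 and 7.76 at d0, 11.20 and 11.42 at d4 and 11.78 and 11.97 at d16 (3.77 ± 0.26, adjusted p = 1.2e-06). Phlda2, a placental growth inhibitor, went down (-2.52 ± 0.32, adjusted p = 0.0001). Grb10 changed by -0.06, adjusted p = 0.86. Arrays do not separate the parental copies.

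Of 32 genes of the response to low oxygen and of glycolysis, 9 were higher and none lower (median 0.69). Vegfa, the vessel growth factor, changed by 3.15 ± 0.35, adjusted p = 3.9e-05, Ndrg1 had 10.37 and 10.86 in d16 EBs, against 6.89 and 7.19 in d0 ESCs (3.58 ± 0.33, adjusted p = 1e-05), and the collagen prolyl hydroxylases P4ha1 (2.97 ± 0.37, adjusted p = 8.4e-05) and P4ha2 (2.83 ± 0.44, adjusted p = 0.00046) rose with them. The glycolytic genes Pgk1 (0.62, adjusted p = 0.14), Tpi1 (0.77, adjusted p = 0.066) and Pfkl (0.37, adjusted p = 0.5) were not called.
The core of the hypoxia response element, ACGTG on either strand, stood in the promoters of 22 of the 28 genes with a promoter in the table and in 21.8% of all genes. At d4 the replicates disagreed in this list (replicate 2 minus replicate 1 had a median of -0.82), as for Egln3 (9.28 and 7.53 at d4), a prolyl hydroxylase of HIF, whose d16 arrays had 9.45 and 9.06, against 6.41 and 6.61 in d0 ESCs (2.75 ± 0.55, adjusted p = 0.0025).

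Lysosomal genes were higher in 17 of 29 cases with none lower (median 1.26), led by cathepsin H (Ctsh, 3.13 ± 0.38, adjusted p = 8e-05), cathepsin B (Ctsb), with 11.03 and 11.45 in d16 EBs, against 8.49 and 8.22 in d0 ESCs (2.88 ± 0.19, adjusted p = 1.2e-06), and Lamp2 (2.67 ± 0.23, adjusted p = 6.6e-06). Of 28 genes for metallothioneins, antioxidants and detoxification, 10 were higher and 1 lower (median 0.52). Selenoprotein P (Selenop), a selenium carrier made by liver, had 8.97 and 8.92 in d16 EBs, against 5.32 and 5.08 in d0 ESCs (3.74 ± 0.33, adjusted p = 6.2e-06), the glutathione transferase Gsta3 8.97 and 8.92 in d16 EBs, against 5.63 and 5.35 in d0 ESCs (3.45 ± 0.19, adjusted p = 2.6e-07), and the mitochondrial superoxide dismutase Sod2 was lower (-1.26 ± 0.19, adjusted p = 0.00039). Mt1 (0.73, adjusted p = 0.39) and Hmox1 (-0.39, adjusted p = 0.56) were not called. Of 31 genes of MHC class I and the interferon response, 7 were higher and 1 lower (median 0.48), with 4 of the rises kept without each array. This list had 12 calls without d16 replicate 1 and 5 without d16 replicate 2. Ifi27, an interferon-induced gene, changed by 2.48 ± 0.20, adjusted p = 4e-06. Of 22 p53 targets and cell death genes, 4 were higher (18.2%, against 8.65% of all genes) and 1 lower (4.55%, against 5.67%), with a median of 0.20. The rises were led by Casp12 (2.00 ± 0.20, adjusted p = 2e-05) and Casp8 (1.97 ± 0.28, adjusted p = 0.00026). Of 22 complement genes, 8 were higher (median 0.63), led by C1qb and clusterin (Clu, 3.10 ± 0.26, adjusted p = 5.4e-06).

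The d4 arrays show when the net change arose. Between d4 EBs and d0 ESCs 1601 probe sets were called (4.51%, with 2.43% higher and 2.08% lower), and between d16 EBs and d4 EBs 2083 (5.87%, with 3.94% higher and 1.93% lower). These steps share arrays with each other and with the net change, so their values are only set side by side. Among the 2192 probe sets higher at d16, 530 were higher in the first step and 1047 in the second. Among the 1639 lower at d16, 477 were lower in the first step and 404 in the second.

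The calls of 2 lists were also counted by step. Over all 19938 genes, 602 were higher and 553 lower in the first step, and 1218 higher and 434 lower in the second. Of the 43 pluripotency factors, 34 were lower and 2 higher in the first step, and 8 lower and 5 higher in the second. Nanog had 10.88 and 10.41 at d0, 7.75 and 8.36 at d4 and 8.05 and 7.75 at d16. Sox2 had 10.80 and 10.97 at d0, 7.54 and 7.05 at d4 and 8.81 and 8.73 at d16, lowest at d4. Of the 52 cell cycle genes, 3 were lower and none higher in the first step, and 16 lower and 4 higher in the second. Dnmt3b, with 9.04 and 9.70 at d4, was called lower in the second step only. Whether the lists differed in timing was not tested.
Of the 32 plasma protein genes, 1 was higher and 1 lower in the first step, and 25 were higher in the second. Of the 41 macrophage genes, none was higher and 2 were lower in the first step, and 28 were higher in the second. Stromal matrix genes were spread, with 15 of 51 higher and 1 lower in the first step, and 26 higher in the second. In these counts, calls for rises of plasma protein and macrophage genes lay mostly in the second step, and those of stromal matrix genes in both.

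Some genes moved between the stages with little or no net change. Of 19 genes of the primitive streak and early mesendoderm, 5 were higher in the first step, 7 lower in the second, and 1, Wnt5a, higher at d16 than at d0 (1.66, adjusted p = 0.01), a call lost without d0 replicate 2 (1.61) or d16 replicate 1 (1.01). Eomes, a T-box factor of the streak and of trophoblast, had 6.64 and 5.75 at d0, 8.12 and 9.75 at d4 and 5.63 and 5.56 at d16, with a net change of -0.60, adjusted p = 0.54. Mixl1 had 6.32 and 5.68 at d0, 7.97 and 9.35 at d4 and 5.91 and 6.45 at d16, and the heart and trophoblast factor Hand1 had 6.50 and 6.41 at d0, 9.53 and 9.24 at d4 and 7.48 and 6.90 at d16. All 3 had their highest values in both d4 arrays.

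**Figure D4:**
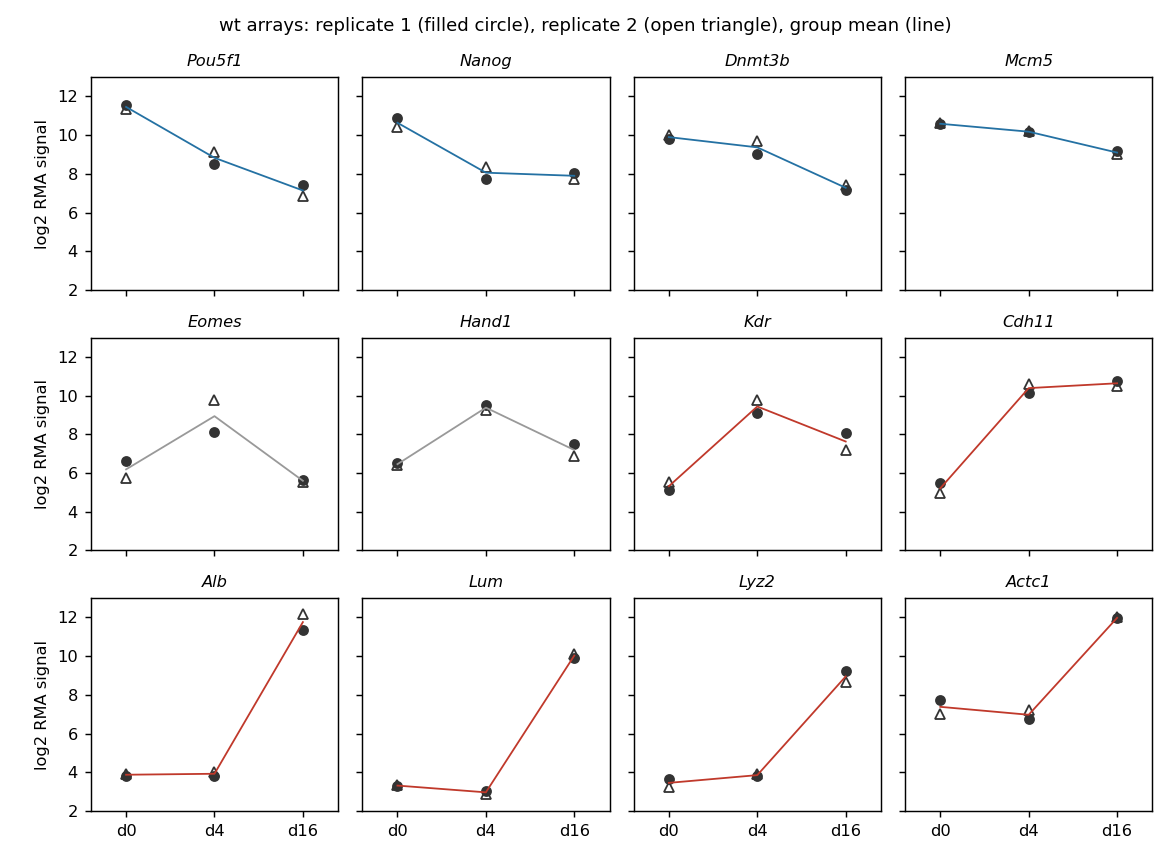
Log2 RMA signals of 12 genes in the wt arrays of d0, d4 and d16, with filled circles for replicate 1, open triangles for replicate 2 and lines through the group means (red called higher, blue called lower, grey not called for d16 against d0). Pou5f1 and Nanog are down by d4, Eomes, Hand1 and Kdr peak at d4, and Alb, Lum, Lyz2 and Actc1 stay at d0 levels until after d4.

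Fewer probe sets changed between d16 and d0 in the mutants. By itself it was called for 6.9% of probe sets in Dnmt1-/- and 2.5% in TKO, against 10.8% in wt. Rises made up 4.8% and falls 2.1% of probe sets in Dnmt1-/-, while TKO had 1.87% that rose and 0.631% that fell. Pluripotency factors were lower in 36 of 43 cases in wt, 29 in Dnmt1-/- and 5 in TKO. Plasma protein genes were higher in 25 of 32 cases in wt, 15 in Dnmt1-/- and 5 in TKO, macrophage genes in 24 of 41 cases in wt, 8 in Dnmt1-/- and 2 in TKO, and stromal matrix genes in 38 of 51 cases in wt, 29 in Dnmt1-/- and 2 in TKO. The difference between the changes was then tested directly. It was called for 1388 probe sets against TKO (3.91% of all, made up of 2.22% with the higher change in wt and 1.69% with the lower) and for 485 against Dnmt1-/- (1.37% of all, made up of 0.749% higher and 0.617% lower). The count against Dnmt1-/- was 166 without wt d0 replicate 1, 211 without wt d0 replicate 2, 208 and 189 without Dnmt1-/- d0 replicate 1 and 2, and 226 and 194 without Dnmt1-/- d16 replicate 1 and 2, and the count against TKO was 903 without TKO d0 replicate 2. Of the 2192 probe sets higher in wt d16 EBs, 715 differed from TKO, 712 of them with the larger rise in wt, and 248 differed from Dnmt1-/-, 239 of them with the larger rise in wt. Of the 1639 lower ones, 405 differed from TKO and 71 from Dnmt1-/-, all with the larger fall in wt. The direction here follows in part from choosing probe sets by their change in wt, and no test was made on these counts.

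Single genes of these groups were set against both mutants. Albumin changed by 7.89 in wt, 4.84 in Dnmt1-/- and -0.01 in TKO, and its difference was 3.06 ± 0.50 from Dnmt1-/- (adjusted p = 0.012) and 7.91 ± 0.50 from TKO (adjusted p = 8.3e-06). Afp changed by 7.42 in wt, 7.41 in Dnmt1-/- and 5.84 in TKO, and its differences of 0.01 ± 0.49 from Dnmt1-/- and 1.58 ± 0.49 from TKO had adjusted p of 1 and 0.095. Whether Alb and Afp differed from each other in this was not tested.
Lumican changed by 6.72 in wt, 3.68 in Dnmt1-/- and 0.64 in TKO, and both differences were called (3.04 ± 0.35, adjusted p = 0.0011, and 6.08 ± 0.35, adjusted p = 5.7e-06). Cathepsin S changed by 4.22 in wt, 0.49 in Dnmt1-/- and 0.14 in TKO (differences 3.73 ± 0.41 and 4.08 ± 0.41, adjusted p = 0.00092 and 0.00015). Oct4 (Pou5f1) fell by more in wt, -4.32, than in TKO, -1.01 (difference -3.31 ± 0.58, adjusted p = 0.0058), while its change of -2.08 in Dnmt1-/- gave a difference of -2.24 ± 0.58 (adjusted p = 0.099).

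**Figure D5:**
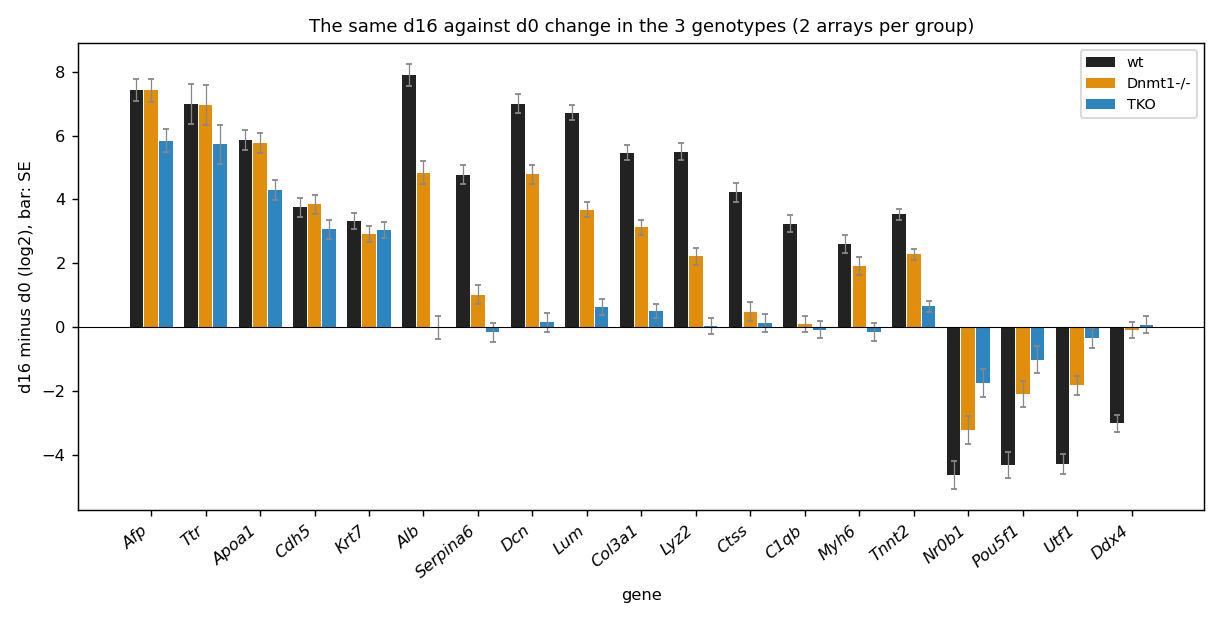
Bars give the change d16 minus d0 (log2) of 19 genes in wt (black), Dnmt1-/- (orange) and TKO (blue), 2 arrays per group, with the SE of the fit as error bars. Afp, Ttr, Apoa1, Cdh5 and Krt7 rise in all 3 genotypes, Alb, Dcn, Lum and Lyz2 in wt and Dnmt1-/-, and Ctss and C1qb in wt, where Alb stands at 7.89 in wt and -0.01 in TKO.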

How the data were processed

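RNA of wt, Dnmt1-/- and TKO J1 ESCs and EBs at d0, d4 and d16 was hybridised to Affymetrix Mouse Gene 1.0 ST arrays, 2 per group. The authors summarised and normalised the arrays by RMA and deposited log2 signals, between 1.21 and 14 here, for 35512 probe sets. RMA brings the arrays to like distributions and leaves no count of molecules, so a signal is relative, and low signals compress fold changes. No source read for this work names the genome build of the annotation. Of the probe sets, 21789 had 1 gene symbol, 1621 several and 12102 none; genes are named from the first kind only, by the brightest probe set (mean of 18 arrays) with that symbol alone.

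Group means of all 9 groups were fitted on 18 arrays with limma 3.58.1 in R 4.3.3, as in the study's methods, and calls needed a change of at least 2-fold and an adjusted p under 0.05 (Benjamini-Hochberg over all probe sets). The variance had 9 residual and 3.32 prior degrees of freedom. All p are two-sided. The fit was tested on simulated data. The duplicates came from independent experiments, by the study's account, with no word on how the replicate numbers relate to them. Scan dates were not used here, so no batch was examined.

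The genes named are the 15 largest rises and falls, up to 8 called members of each list, uncalled members beside them, genes that the study discusses, the Dnmts, and the 10 largest differences from each mutant. Apom, Cps1, Dppa4, Lrp2, Mcm2, Mcm5, Mttp, Myl3, Phlda2, Sod2 and Vtn, called members of their lists beyond the first 8, were added after their values were seen. The members and lists were chosen with earlier results of these data known. Promoters and microRNAs came from RefSeq tables of GRCm38.p6, in which 759 of 1059 listed genes had a promoter and 47 of 51 microRNA genes a hairpin. Alternatives were other scalings, arrays in the fit, filters, variance models, a test against the 2-fold limit, the replicate number as a block and leaving out each array.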

Additional observations from a re-analysis of the deposited data

Results flagged for a closer look

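The change between d16 and d0 differed between genotypes for 1388 probe sets when wt was set against TKO and for 485 when wt was set against Dnmt1-/-, by limma's test of the difference itself over all probe sets. The genes with the largest differences from TKO were mostly of liver and connective tissue. Albumin (Alb) rose more in wt than in TKO by 7.91, decorin (Dcn) by 6.83, chymosin (Cym) by 6.40, lumican (Lum) by 6.08, the glucuronosyltransferase Ugt2b34 by 5.96, fetuin A (Ahsg) by 5.93, lysozyme (Lyz2) by 5.46, type III collagen (Col3a1) by 4.95, the corticosteroid carrier Serpina6 by 4.95 and Bpifb1 by 4.92, all on the log2 scale with adjusted p of 0.00052 or less. In TKO these 10 genes changed by -0.24 to 0.86.

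Against Dnmt1-/-, the largest differences were Cym with 5.76, Bpifb1 with 4.49, F13a1 with 4.05, Gsdmc2 with 3.93, the aldehyde dehydrogenase Aldh1a7 with 3.81, Serpina6 with 3.77, Anxa10 with 3.75 and Ctss with 3.73. In the opposite sense stood Xist, the RNA that coats the inactive X chromosome, with -5.43, and the gastric protease Pgc with -3.77. Xist changed by -0.42 in wt, 5.01 in Dnmt1-/- and 3.25 in TKO, and Pgc by -0.11 in wt, 3.66 in Dnmt1-/- and 1.76 in TKO, so that neither was part of the wt change.

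By list, a difference from TKO was called for 25 of 43 pluripotency factors, 20 of 32 plasma protein genes, 19 of 41 macrophage genes, 14 of 39 cardiac genes and 33 of 51 stromal matrix genes. From Dnmt1-/- it was called for 6, 9, 13, 2 and 12 genes of the same lists. Of all 19938 genes, the change was called higher in wt than in TKO for 671 and lower for 375. Against Dnmt1-/- it was called higher for 240 and lower for 116. By probe set the shares called were 3.91% for TKO and 1.37% for Dnmt1-/-. These lists were chosen with the wt change known. Groups of 2 arrays were too small for the test of single arrays that stand apart.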

How the results depend on the processing

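The count of 3831 probe sets called between d16 EBs and d0 ESCs lay between 3439 and 4186 without 1 array (1893 to 2238 higher, 1291 to 2050 lower). It was 3830 with array medians subtracted (51.4% of calls higher, in place of 57.2%), 3848 after quantile normalization, 3608 in a fit of the 4 arrays, 3629 in a fit of the 6 wt arrays, 3523 without the lowest 30% of probe sets and 3836 with a trended robust variance. Against a log2 change of 1 as the null value (limma's treat), which asks for a change beyond 2-fold, 890 were called, 599 higher and 291 lower, with 245 for d4 against d0 and 402 for d16 against d4, and differences numbered 32 from Dnmt1-/- and 228 from TKO. In fits of only 8 arrays of 2 genotypes, 198 and 825 differences were called. Without 1 array the steps had 1158 to 1647 and 1566 to 2464 calls, and the differences 166 to 471 (Dnmt1-/-) and 903 to 1512 (TKO). The counts of the steps under other settings were added after seeing the data. With the replicate number as a block (pairing), 3982 were called, with 679 and 1781 differences. The deviations of same-numbered arrays correlated with r of 0.264 to 0.426 among the wt groups and 0.0409 to 0.501 over all groups. No source ties the replicate numbers to the experiments, so the fit without the block was kept. Of 220 named genes none reversed under any of these settings, where a change of sign counted only if the gene was called in the main fit or the alternative. For genes called in neither, the sign was not compared. Under the settings other than leaving out 1 array, 1898 of 1965 of their values kept their side of the threshold. The cause of these shifts was not tested. A rise of a gene near the lower end of the signal range is compressed.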
